A study of Mus musculus with 10 samples.

Results

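The Wnt genes described here are 50 of the 16251 genes in the read-count table deposited for cultured mouse lymphatic endothelium (primary LECs), the inner lining of lymph vessels. They were chosen by symbol: 15 Wnt ligand genes, 10 Frizzled receptor genes and 25 named genes for co-receptors, ligand secretion, cytoplasmic effectors, transcription factors and inhibitors. Ror1, also named in the rule, was not analysed here. In 5 libraries, labelled Vegfr2 siRNA, cells had received small interfering RNA against Vegfr2 (the receptor for vascular endothelial growth factor, encoded by Kdr) at 50 nM, and the other 5 libraries carried the label control. Both groups were collected at 48 h. The labels give both groups the treatment tag siRNA knockdown and do not say what, if anything, the control cells were transfected with, nor whether replicates were separate cultures, so a p-value here reflects variation among these libraries that could be purely technical. The study's title concerns a move of lymphatic cells toward blood cell gene programs when VEGFR2 is reduced.

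Wnt proteins are secreted lipid-modified ligands that bind Frizzled receptors. With the co-receptors Lrp5 and Lrp6 they act through Dishevelled to block a destruction complex built on Axin and APC, so that beta-catenin builds up and works with TCF/LEF factors in the nucleus, while other branches, through Ryk, Ror and the planar cell polarity proteins, do not need beta-catenin. In brain and retinal blood vessels of mice, Wnt7 proteins and Norrin drive this pathway in endothelium, and in mouse lymphatic vessels beta-catenin and planar polarity genes are known to take part in valve formation.

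The libraries held 17946483 to 18239260 estimated counts. Kdr stood at 167 to 200.5 CPM in siRNA libraries and at 1259 to 1431 CPM in control libraries (CPM, counts scaled to library size with TMM factors), so the targeted gene followed the labels. It fell by 2.83 on the log2 scale (SE 0.0595, edgeR adjusted p = 3.14e-11, two-sided exact permutation p = 0.00794, the smallest possible with 5 libraries against 5). All 9 lymphatic marker genes looked up, from Prox1 to Itga9, were detected. Their summed level was 11550 to 12540 CPM in siRNA and 17260 to 18930 CPM in control libraries. Of the 9, 8 were lower and 1 higher (edgeR adjusted p under 0.05), where 35.2% of all genes tested were lower and 36.1% higher. The 8 pan-endothelial markers summed to 4572 to 4784 CPM in siRNA and 5614 to 5817 CPM in control libraries, with 7 lower and 1 that did not pass. Markers of fibroblasts and mural cells (12 genes) summed to 13.9 to 16.3 CPM in siRNA and 13.2 to 18.7 CPM in control libraries, with Lum and Rgs5 at or near 0. Within that list Acta2 rose by 0.62 (edgeR adjusted p = 7.5e-06) and Pdgfrb fell by 0.41 (edgeR adjusted p = 0.00183), and Pdgfra, under the filter, had 45 counts over the siRNA and 5 over the control libraries, without overlap. The part of these markers in the Wnt results was not tested. Leukocyte markers (4 of 8 with values) summed to 30.1 to 40.5 CPM in siRNA and 41.9 to 49.8 CPM in control libraries, nearly all of it Cd68.

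Of the 50 genes, 31 passed the filter on low counts and 19 did not. Among the 31 tested, 7 rose, 13 fell and 11 did not pass the test (edgeR quasi-likelihood test, Benjamini-Hochberg adjusted p under 0.05 over all 12161 genes tested). That is 64.5% of tested Wnt genes, against 71.3% of all genes tested, with 36.1% of all genes higher and 35.2% lower. The share of Wnt genes that changed was therefore near that of the transcriptome, and the changes were moderate. Their log2 fold changes ran from -0.72 to 0.46 with a median of -0.16, beside a median of -0.0019 for all genes tested. The value of -0.72 is that of Fzd9, which is among the 13 and passed the filter through its control libraries. The median absolute size was 0.34 against 0.22. Tested against a fold of more than 1.5 (edgeR glmTreat), 0 of the 31 passed, where 8.56% of all genes were called (3.68% higher and 4.88% lower). In that test 0 of the 31 had an unadjusted p under 0.05, beside 1357 of all 12161 genes tested. Between the groups, 16 of the 31 did not overlap, beside 57.0% of all genes tested. In bulk RNA, fewer cells with a transcript and less transcript per cell cannot be told apart, for these and all values that follow.

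**Figure D1:**
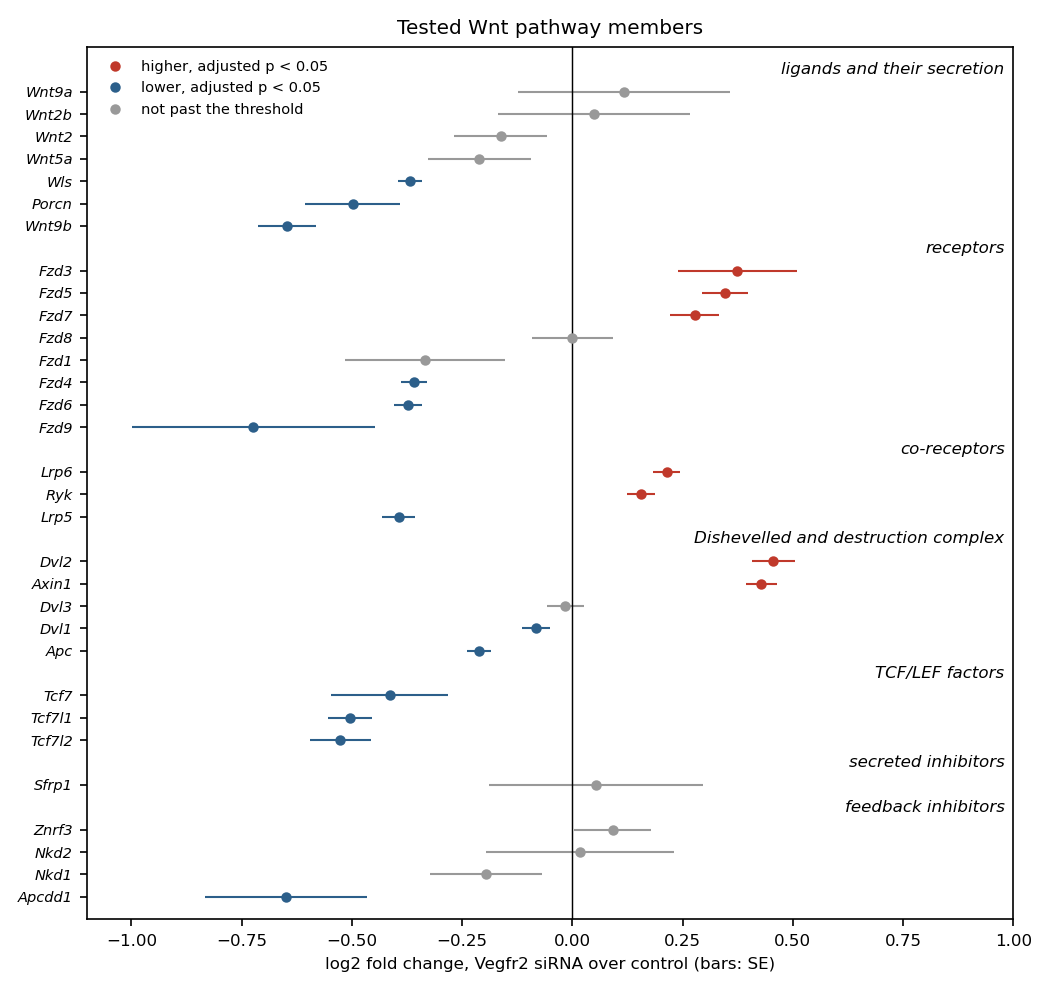
Log2 fold change, Vegfr2 siRNA over control, of the 31 tested Wnt pathway genes, grouped by role, with bars of 1 SE. The 3 TCF/LEF genes all lie left of 0, receptors and co-receptors lie on both sides, and the values run from -0.72 for Fzd9 to 0.46 for Dvl2. Fzd9 passed the filter through its control libraries.

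Of the 7 tested genes for ligands and their secretion, 3 fell, 0 rose and 4 did not pass the test. The share that changed was 42.9%, against 71.3% of all genes tested. Wnt7b, under the filter, had more counts in siRNA cells. Wls, the membrane carrier that takes Wnt proteins to the cell surface, was the most abundant gene of this role per length, and 77.2% of all genes tested had a lower level per kb of exon in control cells. It stood at 137, 137, 141, 134 and 134 CPM in the 5 siRNA libraries and at 184, 169, 178, 174 and 176 CPM in the 5 control libraries. Every siRNA library lay below every control library, and Wls fell by 0.37 on the log2 scale (SE 0.0268, edgeR adjusted p = 4.09e-16). Porcn, the acyltransferase that attaches the lipid to Wnt proteins, also fell, to 3.55 ± 0.355 CPM in siRNA against 5.01 ± 0.387 CPM in control cells (SD, n = 5 each), a log2 fold change of -0.50.

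Wnt9b, at chr11:103727362-103775272 (GRCm38), was the leading Wnt ligand gene per length in these cells and fell. In mouse liver, Wnt9b and Wnt2 are the ligands that endothelial cells are known to supply to hepatocytes. Wnt9b stood at 13.5, 11.2, 10.6, 10.6 and 10.5 CPM in siRNA libraries and at 17.3, 17.9, 17.4, 17.8 and 18 CPM in control libraries. The groups did not overlap, and the highest siRNA library, replicate 1, stood apart from the other four of its group. Wnt9b fell by 0.65 on the log2 scale (SE 0.065, edgeR adjusted p = 6.95e-12), to 63.8% of the control level, and by 0.72 without siRNA replicate 1. Of the summed Wnt ligand level per kb of exon, Wnt9b made up 42.3% ± 2.58 in siRNA and 52.4% ± 1.17 in control cells (SD, n = 5 each). That sum was 5.04 to 6.94 CPM per kb in siRNA and 7.07 to 7.67 CPM per kb in control libraries.

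The other tested ligand genes did not pass the test. Wnt2 had 4.57 ± 0.706 CPM in siRNA and 5.11 ± 0.369 CPM in control cells, and made up 34.1% ± 2.81 of the summed ligand level per kb in siRNA and 30.3% ± 1.34 in control cells (SD, n = 5 each). Wnt5a, a ligand best known for beta-catenin-independent signalling, had 3.50 ± 0.444 CPM in siRNA and 4.05 ± 0.486 CPM in control cells, with a log2 fold change of -0.21 (edgeR adjusted p = 0.104), and passed without control replicate 2 (adjusted p = 0.0431). Wnt2b and Wnt9a lay near 1 CPM in both groups, with log2 fold changes of 0.05 and 0.12. Their libraries overlapped widely.

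Wnt7b was the only one of the 10 ligand genes under the filter whose groups did not overlap, and it was singled out after its values were seen. It lies at chr15:85535437-85581821 (GRCm38) and encodes a ligand that, with Wnt7a, is known to drive brain blood vessel growth in mice. It had 9, 13, 14, 14 and 14 counts in siRNA libraries and 0, 1, 1, 0 and 0 counts in control libraries. The sums, 64 counts in siRNA against 2 in control libraries, give a ratio of 31.8 with an exact 95% interval of 8.45 to 268 that covers counting error only. Without the filter, the edgeR log2 fold change was 4.61 (adjusted p = 5.7e-14, given as a description, since the gene was picked for this difference), in a fit where 55.2% of 16226 genes were called and 28.2% were higher. The level remained low, at 0.70 ± 0.120 CPM in siRNA cells against 0.022 ± 0.030 CPM in control cells (SD, n = 5 each). Annotated exons of Wnt7b overlap a gene transcribed from the other strand over 6.61% of their length, and no strand setting is stated.

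Wnt7b is also expressed in epithelium. Of the 5 epithelial markers with values, 3 were under the filter and 2 rose, where 36.1% of all genes tested were higher. Epcam had 5 counts over the siRNA and 3 over the control libraries, Cdh1 had 1 count in each group, and Krt8 had 0 in siRNA and 4 in control libraries. The summed level of the 5 epithelial markers with values was 9.74 to 10.5 CPM in siRNA and 2.28 to 3.25 CPM in control libraries, most of it Krt18, with 749 counts over the siRNA and 150 over the control libraries. Krt10 had 166 counts over the siRNA and 102 over the control libraries. Krt18 rose by 2.29 on the log2 scale (edgeR adjusted p = 9.16e-21) and Krt10 by 0.68 (edgeR adjusted p = 0.0014). Krt5 and Krt14 were not analysed here. The part of these markers in the Wnt7b result was not tested.

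The remaining ligand genes were close to the limit of detection. Wnt6 had 25 counts over each group, Wnt11 had 19 over the siRNA and 18 over the control libraries, and Wnt5b had 11 and 9. Wnt4, Wnt8a, Wnt10a, Wnt10b, Wnt16 and Wnt7a had at most 4 counts over all libraries of a group. A total of 0 over a group allows up to 3 counts, so such genes are not detectable at this depth, which does not show that they are absent.

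**Figure D2:**
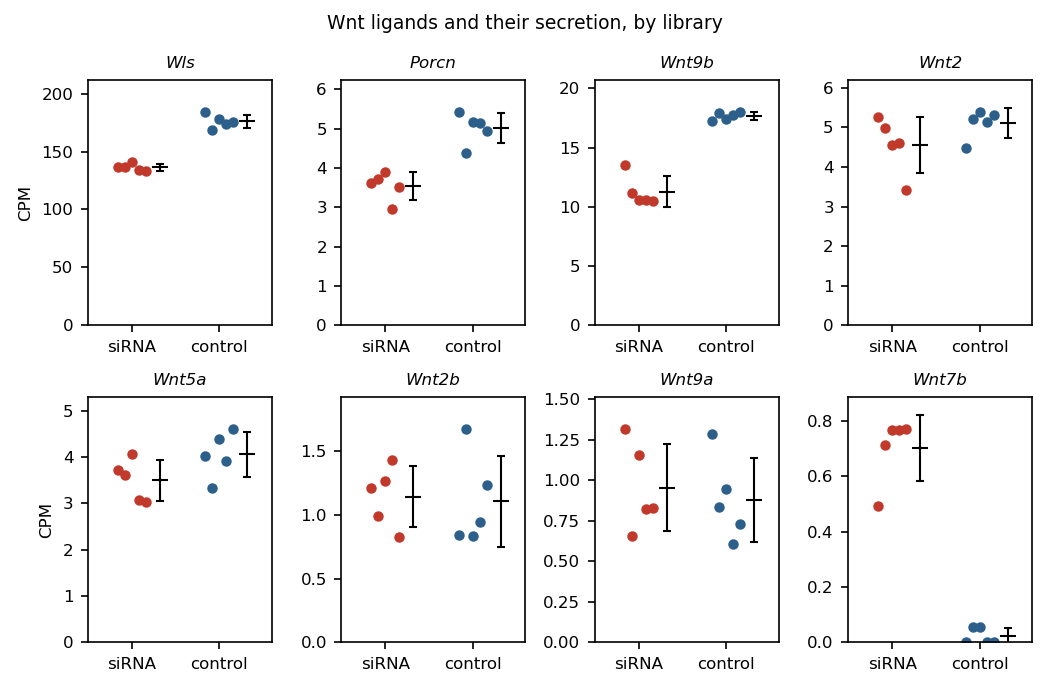
CPM of ligand and secretion genes in each of the 10 libraries, siRNA left of control, with the mean and SD of 5 libraries beside the points; axes start at 0 and differ in height between genes. Wls, Porcn and Wnt9b are lower in every siRNA library, and Wnt7b, at 0.49 to 0.77 CPM in siRNA and 0 to 0.056 CPM in control libraries, is the only ligand higher in every siRNA library.

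The Frizzled receptors moved in opposite directions: 3 rose, 3 fell and 2 did not pass the test. The share that changed, 75.0%, was near the 71.3% of all genes tested. The promoters of an abundant receptor that fell, Fzd4, and of a receptor that rose, Fzd7, are shown, from 250 bases before to 50 bases after the annotated start, as given by RefSeq on GRCm38.p6. That of Dvl2, the member with the largest rise among the tested, is shown beside them. Capitals mark matches, on either strand, to a TCF/LEF word (CTTTGAT or CTTTGAA or CTTTGTT or CTTTGTA) or to the AP-1 word, TGANTCA, which was searched beside it.
Fzd4, chr7:89404116-89404415, plus strand: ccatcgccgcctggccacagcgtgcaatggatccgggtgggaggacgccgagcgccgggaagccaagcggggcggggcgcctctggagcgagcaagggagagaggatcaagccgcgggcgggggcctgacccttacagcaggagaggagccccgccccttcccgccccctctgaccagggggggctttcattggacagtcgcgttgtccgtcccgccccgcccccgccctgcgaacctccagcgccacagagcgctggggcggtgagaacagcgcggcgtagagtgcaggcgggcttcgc
Fzd7, chr1:59481897-59482196, plus strand: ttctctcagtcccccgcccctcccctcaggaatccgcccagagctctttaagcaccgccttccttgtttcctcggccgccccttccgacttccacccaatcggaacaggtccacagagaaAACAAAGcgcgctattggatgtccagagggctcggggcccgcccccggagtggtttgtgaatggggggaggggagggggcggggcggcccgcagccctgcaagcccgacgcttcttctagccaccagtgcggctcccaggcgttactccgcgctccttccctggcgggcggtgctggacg
Dvl2, chr11:70000342-70000641, plus strand: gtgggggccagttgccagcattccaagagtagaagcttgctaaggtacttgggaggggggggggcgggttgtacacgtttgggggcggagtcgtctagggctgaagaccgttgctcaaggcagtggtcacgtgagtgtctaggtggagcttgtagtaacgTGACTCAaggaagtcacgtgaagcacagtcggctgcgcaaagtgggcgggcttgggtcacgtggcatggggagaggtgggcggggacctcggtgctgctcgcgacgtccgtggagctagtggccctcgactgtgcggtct
A TCF/LEF word is present in Fzd7 and an AP-1 word in Dvl2, and neither in Fzd4. Of the genes not shown, Tcf7l2, which fell, also has a TCF/LEF word, and Fzd5, which rose, has neither word. Such words are common: a TCF/LEF word occurs in 16.9% and the AP-1 word in 7.81% of the 32851 promoter windows of this length. Counted by gene, with a match in any of its windows, a TCF/LEF word occurs in 2 of 19 tested Wnt genes (10.5%) and in 13.5% of the 9763 tested genes with a window. The AP-1 word occurs in 1 of the 19 (5.26%) and in 5.93% of the 9763. These are matches of letters and not binding sites.

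Fzd4 and Fzd6 were the most abundant receptors, and both fell. Fzd4 is the receptor of Norrin, needed for retinal blood vessel growth in mice. It stood at 95, 95.4, 93.1, 92.9 and 93.2 CPM in siRNA libraries and at 117, 117, 123.5, 116 and 129 CPM in control libraries. All siRNA libraries lay below all control libraries, and Fzd4 fell by 0.36 on the log2 scale (SE 0.0301, edgeR adjusted p = 3.28e-14). Its estimated counts held fractions in all 10 libraries, which arise when reads are divided between genes. How many reads were divided is not known. Fzd6, known from mice for its part in tissue polarity, fell by 0.37, to 60.7 ± 0.577 CPM in siRNA against 78.7 ± 2.50 CPM in control cells (SD, n = 5 each). Per kb of exon, Fzd4 (14.0 in siRNA and 17.9 CPM per kb in control cells) lay above Fzd6 (12.6 and 16.3 CPM per kb), and their order turned round when the longest transcript was used as length.

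Fzd7, Fzd5 and Fzd3 rose. Fzd7, a receptor of beta-catenin signalling in stem cells, stood at 19.3, 18.9, 18.8, 21.7 and 18.9 CPM in siRNA libraries and at 15.6, 15.0, 16.8, 16.4 and 16.8 CPM in control libraries, a log2 fold change of 0.28 (SE 0.0565, edgeR adjusted p = 3.25e-05). Fzd5, needed for yolk sac blood vessels in mice, rose by 0.35, to 22.6 ± 1.29 CPM in siRNA against 17.8 ± 0.486 CPM in control cells (SD, n = 5 each). Neither gene's groups overlapped. Exons of Fzd5 overlap a gene of the other strand over 17.8% of their length. Fzd3, known for axon guidance and polarity, rose by 0.37 with overlapping groups, at 2.63 to 3.51 CPM in siRNA and 1.95 to 2.87 CPM in control libraries (edgeR adjusted p = 0.0129), and its call was lost with DESeq2 (adjusted p = 0.0508).

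Of the scarcer receptors, Fzd9 fell by 0.72 on the log2 scale (SE 0.275, edgeR adjusted p = 0.0179), with 0.49, 0.66, 0.38, 0.55 and 0.33 CPM in siRNA and 0.84, 1.00, 0.67, 0.94 and 0.56 CPM in control libraries. It had 6 to 12 counts in siRNA and 10 to 18 in control libraries, so it passed the filter through the control libraries. Its call is therefore given as a description. The groups overlapped, and the call was lost with DESeq2 (adjusted p = 0.0676), without siRNA replicate 5 (0.056) and without control replicate 2 (0.0571). Fzd8 stood at 6.08 CPM in both groups and Fzd1 had a log2 fold change of -0.33 (edgeR adjusted p = 0.095) that passed without siRNA replicate 2 (0.0454) and without control replicate 4 (0.0291). Fzd2 had 4 counts over the siRNA and 11 over the control libraries, and Fzd10 had 4 and 2.

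The make-up of the Frizzled transcripts differed between the groups. Summed over the 10 genes, the level was 35.7 to 36.3 CPM per kb in siRNA and 41.7 to 43.6 CPM per kb in control libraries. Fzd4 and Fzd6 made up 38.8% ± 0.526 and 35.0% ± 0.362 of it in siRNA cells, against 42.3% ± 1.39 and 38.5% ± 1.47 in control cells (SD, n = 5 each). Fzd7 made up 12.0% ± 0.688 in siRNA and 8.38% ± 0.345 in control cells, and Fzd5 9.10% ± 0.542 in siRNA and 6.07% ± 0.151 in control cells. For these 4 genes the shares of the groups did not overlap, and a share within a library does not depend on the scaling between libraries.

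**Figure D3:**
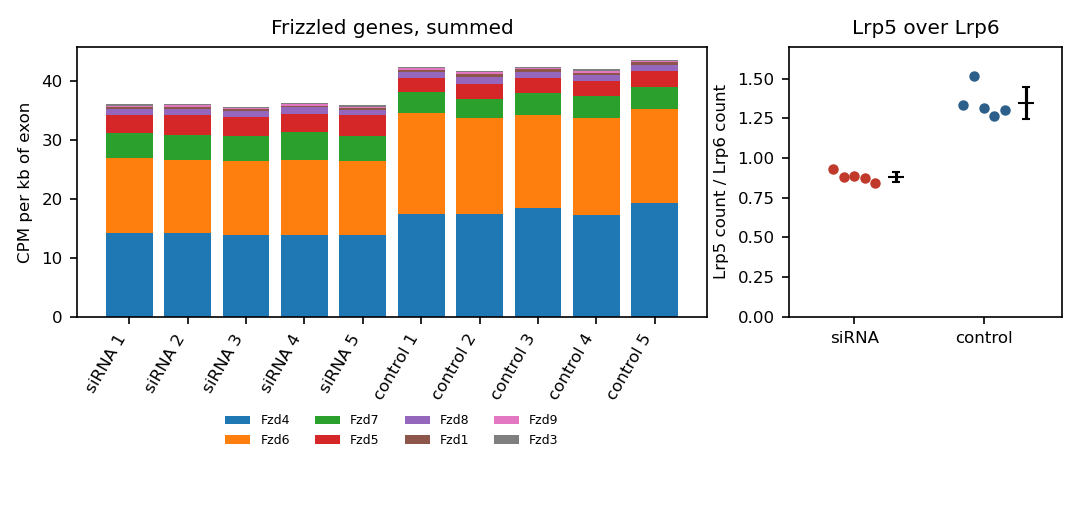
Left, CPM per kb of exon of 8 Frizzled genes stacked for each library; right, the ratio of Lrp5 to Lrp6 counts in each library with the mean and SD of 5. The summed Frizzled level is lower in every siRNA library, and the Lrp5 to Lrp6 ratio is 0.843 to 0.929 in siRNA and 1.26 to 1.52 in control libraries.

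The co-receptors of beta-catenin signalling, Lrp5 and Lrp6, went opposite ways. Lrp5, which works with Fzd4 in the retina, stood at 116, 112, 110.3, 106 and 106 CPM in siRNA libraries and at 142, 156, 139, 134 and 153 CPM in control libraries. Lrp6, its close relative, stood at 125, 128, 124.5, 120.5 and 126 CPM in siRNA and at 107, 103, 106, 106 and 117 CPM in control libraries. Lrp5 was lower and Lrp6 higher in every siRNA library than in any control library. Lrp5 fell by 0.39 on the log2 scale (SE 0.0371, edgeR adjusted p = 1.41e-09), and Lrp6 rose by 0.21 (SE 0.0303, edgeR adjusted p = 4.17e-08). The ratio of Lrp5 to Lrp6 counts, which no scaling factor enters, was 0.883 ± 0.031 in siRNA and 1.35 ± 0.0988 in control cells (SD, n = 5 each).

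Ryk, a receptor for Wnt5a and other ligands outside the beta-catenin branch, had the highest co-receptor level per length over both groups, at 15.4 CPM per kb in siRNA and 13.8 CPM per kb in control cells. Lrp5 lay below it in siRNA cells, at 11.3 CPM per kb, and above it in control cells, at 14.9 CPM per kb. It stood at 68.7, 69.7, 68.1, 71.4 and 71.0 CPM in siRNA libraries and at 62.1, 61.3, 64.2, 62.7 and 62.9 CPM in control libraries. The groups did not overlap, and Ryk rose by 0.16 on the log2 scale (SE 0.0316, edgeR adjusted p = 3.01e-05). Ror2, another Wnt5a receptor, had 1 count over the siRNA and 2 over the control libraries.

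Among Dishevelled proteins and the destruction complex, Dvl2 and Axin1 rose while Apc and Dvl1 fell. Axin1, the scaffold that limits the destruction complex, stood at 60.1, 58.4, 58.3, 61.8 and 60.1 CPM in siRNA and at 44.7, 44.7, 43.0, 43.3 and 46.3 CPM in control libraries. Its groups were far apart, and it rose by 0.43 on the log2 scale (SE 0.0353, edgeR adjusted p = 2.14e-14). Apc, the tumour suppressor that helps Axin hold beta-catenin, fell by 0.21, to 153 ± 5.66 CPM in siRNA against 177.5 ± 3.57 CPM in control cells (SD, n = 5 each), also without overlap. The ratio of Axin1 to Apc counts was 0.390 ± 0.0226 in siRNA and 0.250 ± 0.00377 in control cells.

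Dvl1, the most abundant of these genes per length over both groups, stood at 78.8, 75.5, 73.8, 75.5 and 75.0 CPM in siRNA and at 77.0, 79.0, 81.2, 80.8 and 82.9 CPM in control libraries. Its groups overlapped, and it fell by 0.08 on the log2 scale (SE 0.0309, edgeR adjusted p = 0.0163), a call that was lost without control replicate 5 (adjusted p = 0.0554). Dvl2 rose by 0.46 (SE 0.0486, edgeR adjusted p = 3.6e-11), to 32.2 ± 1.91 CPM in siRNA against 23.5 ± 1.33 CPM in control cells (SD, n = 5 each). Annotated exons of Dvl2 share 19.7% of their bases with other genes, Acadvl on the other strand among them, and Acadvl itself fell by 0.45. Dvl3 had 37.3 CPM in siRNA and 37.7 CPM in control cells (edgeR adjusted p = 0.736). The summed Dishevelled level overlapped between the groups, at 25.5 to 26.5 CPM per kb in siRNA and 24.6 to 26.2 CPM per kb in control libraries, with Dvl2 at 19.6% ± 0.985 of it in siRNA and 14.5% ± 0.607 in control cells (SD, n = 5 each).

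All 3 tested TCF/LEF genes fell, where 71.3% of all genes tested changed and 35.2% were lower. Tcf7l1, which acts largely as a repressor of Wnt targets, was the most abundant, at 5.61 CPM per kb in siRNA and 7.97 CPM per kb in control cells. It stood at 24.15, 20.2, 22.3, 22.3 and 21.1 CPM in siRNA and at 29.6, 30.8, 29.95, 31.6 and 34.3 CPM in control libraries, a log2 fold change of -0.50 (SE 0.0502, edgeR adjusted p = 5.15e-12). Tcf7l2, the main partner of beta-catenin in many adult tissues, stood at 11.6, 9.33, 11.8, 12.1 and 9.85 CPM in siRNA and at 16.7, 15.5, 14.8, 16.6 and 15.0 CPM in control libraries, a log2 fold change of -0.53 (SE 0.0694, edgeR adjusted p = 7.59e-09). For both genes every siRNA library was below every control library. Tcf7 fell by 0.41 (edgeR adjusted p = 0.00553) with overlapping groups, at 2.69 ± 0.537 CPM in siRNA and 3.58 ± 0.404 CPM in control cells (SD, n = 5 each). The estimated counts of Tcf7 held fractions in all 10 libraries. Lef1, itself a Wnt target in many tissues, had 7 counts over the siRNA and 3 over the control libraries.

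The summed TCF/LEF level was 6.94 to 8.76 CPM per kb in siRNA and 10.8 to 11.6 CPM per kb in control libraries. The shares within it stayed close, with Tcf7l1 at 71.2% ± 1.86 in siRNA and 71.5% ± 2.27 in control cells and Tcf7l2 at 15.8% ± 0.904 in siRNA and 16.1% ± 1.06 in control cells (SD, n = 5 each).

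**Figure D4:**
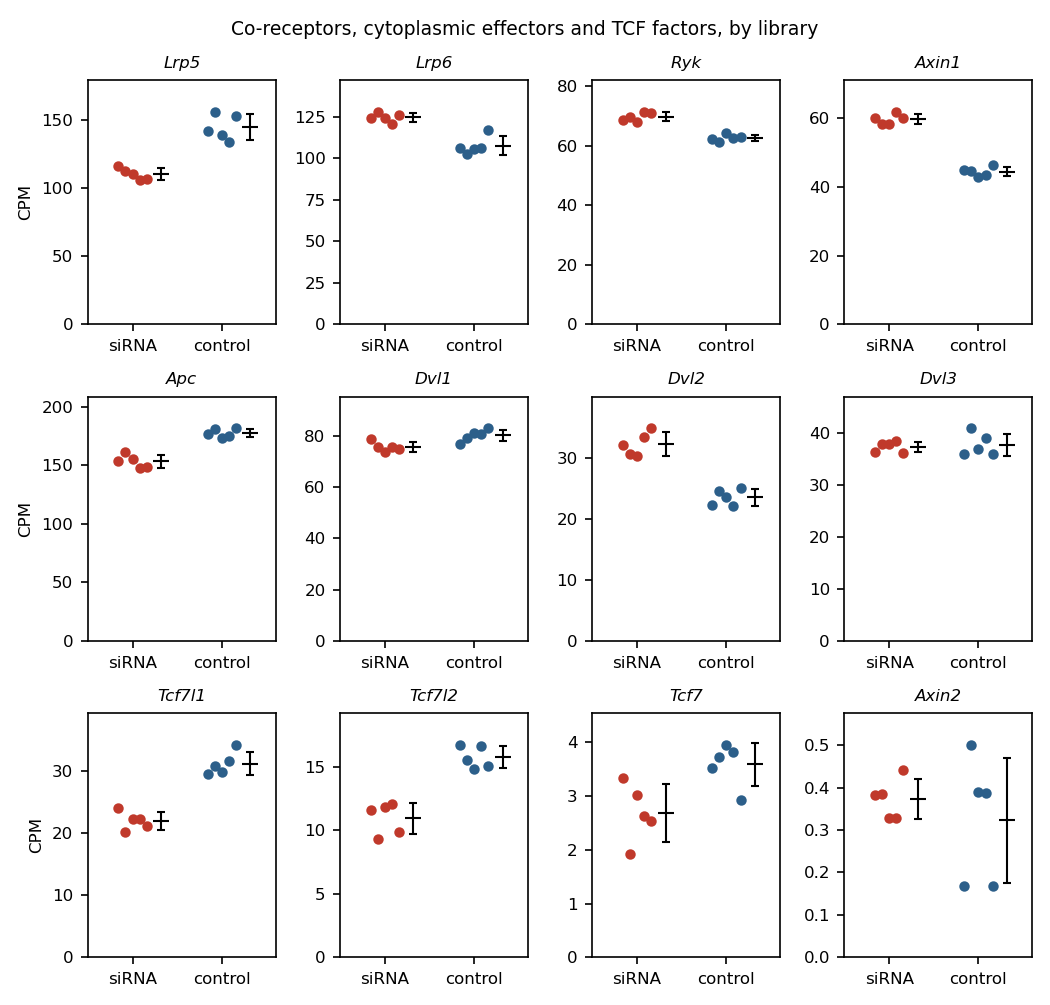
CPM of co-receptors, cytoplasmic effectors and TCF factors in each library, siRNA left of control, with mean and SD of 5; axes start at 0 and differ in height between genes. Lrp6, Ryk, Axin1 and Dvl2 are higher and Lrp5, Apc, Tcf7l1 and Tcf7l2 lower in every siRNA library, while Axin2 stays at or under 0.50 CPM in all 10.

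Inhibitors that Wnt signalling switches on as feedback were scarce, and 1 of the 4 tested changed, against 71.3% of all genes tested. Axin2, a scaffold whose transcript is widely read as a measure of beta-catenin signalling, had 6 to 8 counts in siRNA and 3 to 9 counts in control libraries, 34 and 29 in all. Rnf43, a ubiquitin ligase that removes Frizzled receptors, had 0 counts over the siRNA and 2 over the control libraries. Its partner Znrf3 had the highest level of this role per length over both groups, with Nkd1 slightly above it in control cells. Znrf3 had 6.899, 7.30, 6.48, 6.25 and 6.88 CPM in siRNA and 6.04, 5.62, 6.84, 6.79 and 6.45 CPM in control libraries, which overlapped (log2 fold change 0.09, SE 0.0869, edgeR adjusted p = 0.352). The Dishevelled-binding inhibitors Nkd1 and Nkd2 had log2 fold changes of -0.19 (edgeR adjusted p = 0.167) and 0.02 (0.946). Apcdd1, a membrane inhibitor, fell by 0.65 (SE 0.183, edgeR adjusted p = 0.00173), with 1.21, 1.152, 1.098, 0.77 and 1.27 CPM in siRNA and 1.96, 1.95, 1.5, 1.66 and 1.57 CPM in control libraries, which did not overlap.

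Of the 4 secreted inhibitors among the 50 genes, only Sfrp1, which binds Wnt proteins, passed the filter. It had 0.99, 0.66, 0.88, 1.04 and 0.77 CPM in siRNA and 0.95, 0.67, 0.50, 1.22 and 0.84 CPM in control libraries, which overlapped (log2 fold change 0.05, SE 0.243, edgeR adjusted p = 0.853). Dkk2, a ligand of Lrp5 and Lrp6, had 51 counts over the siRNA and 22 over the control libraries, with overlapping ranges of 5 to 14 and 2 to 6. Without the filter the log2 fold change of Dkk2 was 1.18 (edgeR adjusted p = 0.00417), in a fit where 55.2% of 16226 genes were called. That value is given as a description, since the gene did not pass the main filter. Dkk3 had 22 counts over the siRNA and 32 over the control libraries, and Dkk1, an inhibitor of Lrp5 and Lrp6, had 0 and 1.

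The rest of the pathway was read from a list of 113 genes by role, of which 80 were tested, 19 were under the filter and 14 were not analysed here. Of the 80, 22 rose, 33 fell and 25 did not pass the test, so that 68.8% changed, against 71.3% of all genes tested, with a median log2 fold change of -0.04. Against a fold of more than 1.5, 2 rose and 7 fell (edgeR glmTreat, which called 8.56% of all genes tested). These were Gpc4 and Cd44 upward and Rspo3, Reck, Adgra2, Celsr1, Prickle1, Prickle2 and Plvap downward.

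Partners of Frizzled receptors at the cell surface gave some of the largest changes. All 5 tested co-factors changed, 4 of them downward, where 71.3% of all genes tested changed and 35.2% were lower. Reck and Adgra2 encode the receptor pair through which mouse brain endothelium senses Wnt7 ligands. Reck stood at 8.32, 7.46, 7.90, 8.39 and 7.92 CPM in siRNA and at 15.2, 15.5, 14.2, 14.7 and 17.05 CPM in control libraries, and fell by 0.94 on the log2 scale (SE 0.0696, edgeR adjusted p = 7.8e-16). Adgra2 stood at 187, 192, 186, 183 and 174 CPM in siRNA and at 312.5, 318, 295, 295.5 and 322 CPM in control libraries, and fell by 0.74 (SE 0.0279, edgeR adjusted p = 5.65e-25). For both, every siRNA library lay below every control library.

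Tspan12, which joins Fzd4 and Lrp5 in Norrin signalling, fell by 0.27, to 76.2 ± 2.2 CPM in siRNA against 91.8 ± 2.15 CPM in control cells, and Ptk7, a polarity receptor, fell by 0.40 (SD, n = 5 each). The gene for Norrin itself, Ndp, had 18 counts over the siRNA and 4 over the control libraries. Gpc4, a cell surface heparan sulfate proteoglycan, rose by 1.21 (SE 0.0381, edgeR adjusted p = 1.05e-28), to 62.3 ± 1.22 CPM in siRNA against 27.0 ± 0.780 CPM in control cells. R-spondins are secreted proteins that, through LGR receptors, keep Rnf43 and Znrf3 off Frizzled. Rspo3, a known endothelial R-spondin in mice, fell by 1.39 (SE 0.137, edgeR adjusted p = 4e-12), to 1.45 ± 0.155 CPM in siRNA against 3.81 ± 0.201 CPM in control cells (SD, n = 5 each). Exons of Rspo3 overlap a gene of the other strand over 13.1% of their length. The receptor gene Lgr4 fell by 0.26, and Lgr5 had 3 counts over the siRNA and 6 over the control libraries.

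Of 19 tested genes listed for planar polarity and the other branches that do not use beta-catenin, 11 fell, 2 rose and 6 did not pass. The share that changed, 68.4%, was near the 71.3% of all genes tested, of which 35.2% were lower. The list also holds genes of the calcium and kinase branches, of which the kinase gene Camk2d rose by 0.26 and Map3k7 fell by 0.31. Celsr1, an atypical cadherin needed for lymphatic valves in mice, stood at 28.3, 27.6, 26.1, 23.4 and 23.7 CPM in siRNA and at 57.05, 61.2, 58.6, 58.2 and 58.5 CPM in control libraries. It fell by 1.19 on the log2 scale (SE 0.044, edgeR adjusted p = 4.11e-26), to 44.0% of the control level. The cytoplasmic polarity genes Prickle1 and Prickle2 fell by 1.05 and 0.91. Estimated counts of Prickle2 held fractions in all 10 libraries. Vangl1 fell by 0.26, whereas its relative Vangl2 had 9.11 ± 0.706 CPM in siRNA and 9.52 ± 0.961 CPM in control cells (SD, n = 5 each; edgeR adjusted p = 0.478). The median log2 fold change of the list was -0.24, beside -0.0019 for all genes tested.

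Of 22 tested genes of the destruction complex and its regulators, 8 rose, 6 fell and 8 did not pass. The shares that changed, 63.6% here and 66.7% of the nuclear partners below, were near the 71.3% of all genes tested. Ctnnb1, which encodes beta-catenin, fell by 0.28 on the log2 scale (SE 0.0219, edgeR adjusted p = 2.73e-15), to 1637 ± 10.9 CPM in siRNA against 1993 ± 39.0 CPM in control cells (SD, n = 5 each), with 15.1% of its exon bases shared with other genes. Its kinase gene Gsk3b fell by 0.10 with overlapping groups, while the related Gsk3a rose by 0.24 without overlap. Annotated exons of Gsk3a overlap a gene of the other strand over 28.3% of their length. The casein kinase genes Csnk1g3, Csnk1e and Csnk1g1 rose by 0.49, 0.32 and 0.09. Their relatives Csnk1a1 and Csnk1d fell by 0.16 and 0.27, and Csnk1g2 did not pass. The tankyrase gene Tnks2 rose by 0.24, and Tnks did not pass. Of 18 nuclear partners 6 rose, 6 fell and 6 did not pass. The beta-catenin co-activator gene Bcl9l (-0.68) and Tle5 (-0.23), of the TLE corepressor family, were lower. The chromatin remodeller gene Chd8 (0.20) was higher. Of the other TLE genes, Tle2 (-0.64) and Tle4 (-0.30) fell, Tle3 (0.22) rose and Tle1 did not pass. Ctnnbip1, an inhibitor of beta-catenin, had a log2 fold change of 0.07 (edgeR adjusted p = 0.149). Of the further inhibitors on the wider list, the membrane protein gene Kremen1 (0.06, edgeR adjusted p = 0.0727) did not pass. Igfbp4 (-0.03, 0.277) and Frzb (-0.24, 0.433), which encode secreted proteins, did not pass either.

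Genes listed as Wnt targets moved in both directions, with 5 higher, 4 lower and 2 that did not pass of 11 tested. Of all genes tested, 36.1% were higher and 35.2% lower. Myc and the glucose transporter gene Slc2a1 rose by 0.48 and 0.62, and the adhesion receptor gene Cd44 by 1.08. Ccnd1, the cyclin D1 gene, fell by 0.35, and its estimated counts held fractions in all 10 libraries. In mouse brain endothelium beta-catenin is known to raise Cldn5, a tight junction gene, and to lower Plvap, a gene of fenestrated endothelium. Here Cldn5 rose by 0.28, to 559 ± 17.1 CPM in siRNA against 460 ± 27.4 CPM in control cells, and Plvap fell by 1.54, to 109 ± 6.99 CPM in siRNA against 315 ± 14.1 CPM in control cells (SD, n = 5 each). A part of beta-catenin in these changes was not tested. The transcription factor gene Sox17 had a log2 fold change of 0.10 (edgeR adjusted p = 0.449). Foxc2, a valve gene, fell by 0.51 and Gata2 rose by 0.16.

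**Figure D5:**
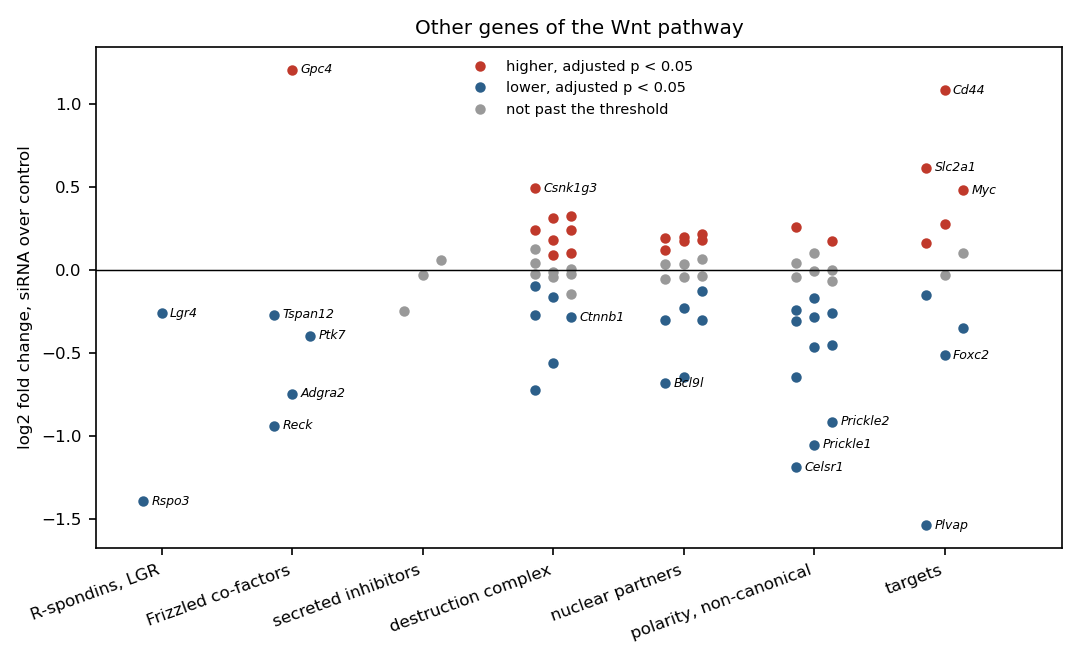
Log2 fold change, siRNA over control, of the 80 tested genes of the pathway list by role, each point a gene. The points spread from -1.54 for Plvap to 1.21 for Gpc4, with Rspo3 at -1.39 and Celsr1 at -1.19 among the genes furthest from 0.

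A 7-base word, GTAAAGA, was noticed in earlier work on these data because genes that carry it in their 3' UTRs had lower fold changes, so it supports nothing by itself. Among all tested genes other than Kdr with a 3' UTR of at least 50 bases, the median log2 fold change was -0.13 for the 1528 carriers and 0.015 for the other 10306. The 3' UTRs of carriers were longer, with a median of 2713 bases against 1267 for the others. Among the tested Wnt genes these medians were 3846 and 2208 bases. The comparison was not adjusted for this length. Of the 31 tested Wnt genes, 8 carry it. These are Apcdd1, Znrf3, Wls, Fzd3, Fzd4, Fzd5, Fzd7 and Sfrp1, of which 3 rose, 3 fell and 2 did not pass, with a median of 0.07. The 23 without the word, among them Wnt9b, Lrp5, Fzd6 and the 3 TCF genes, had a median of -0.20, with 4 higher and 10 lower. The part of the word in these results was not tested.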

How the data were processed

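Poly(A) RNA was captured with oligo(dT) beads, fragmented and primed with random hexamers, per the labels' protocols. In the deposited file are the authors' estimated counts per gene and library, not normalized, with fractions in 10.5% to 11.3% of genes. The submitters' processing notes list RSEM 1.3.1, HISAT2 2.2.1 and Bowtie2 2.4.5, with GRCm38.p6 as build, without roles; which annotation and strand setting were used is not stated there. Expected counts were rounded. The test was edgeR's quasi-likelihood F test (version 4.0.16, R 4.3.3) with a robust fit on group alone, TMM factors and filterByExpr (minimum count 10, Benjamini-Hochberg adjustment over 12161 genes, threshold 0.05). CPM use TMM-scaled library sizes. The exact permutation test of Kdr used log2(CPM + 0.5). A standard error is the absolute log2 fold change over the square root of F. Exon lengths and overlaps came from GENCODE M21, coordinates and promoters from RefSeq (16202 gene IDs matched; promoter windows for 33 of the 50 Wnt genes).

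The members and lists were chosen with earlier results of these data known. Per-library values are given for tested members with an adjusted p under 0.05 and an absolute log2 fold change of at least 0.5, and for the most abundant gene per length of each role, and for others where they show the pattern. Of each list of the wider pathway, 14 fixed names and the 3 lowest adjusted p-values are given, and others were named after their values were seen. The methods were tested on simulated data. Alternatives were DESeq2 1.42.0, limma-voom 3.58.1, RLE factors, upper-quartile factors, dropping the filter, a minimum mean of 5 CPM, glmTreat, the replicate number as a block and each library left out. A minimum count of 5 and the Wnt7b count ratio were added after seeing the data.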

Additional observations from a re-analysis of the deposited data

Results flagged for a closer look

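In 62 groups of 5 libraries (31 tested Wnt genes in 2 groups), 5 held a library far from the other four by Dixon's test at the 95% level, where chance alone flags about 1 in 20. Wnt9b was at 13.5 CPM in siRNA replicate 1 and at 10.5 to 11.2 CPM in the other siRNA libraries. Fzd7 was at 21.7 CPM in siRNA replicate 4 and at 18.8 to 19.3 CPM in the others. Lrp6 was at 117 CPM in control replicate 5 and at 103 to 107 CPM in the others, still under every siRNA library. Wnt2 was at 4.47 CPM in control replicate 1 and at 5.14 to 5.39 CPM in the others. Nkd2 was at 0.612 CPM in control replicate 2 and at 1.29 to 1.46 CPM in the others.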

How the results depend on the processing

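Over 19 alternatives, 0 of the 20 called Wnt genes changed direction, and outside glmTreat 3 of them (Fzd3, Fzd9 and Dvl1) lost the call under at least 1 alternative. The counts were 7 to 8 higher and 12 to 14 lower when a library was left out (21 to 23 and 30 to 33 for the wider pathway list, 4281 to 4360 and 4156 to 4220 for all genes), and 6 to 9 higher and 9 to 13 lower under the other settings apart from glmTreat. Between 18 and 50 Wnt genes were tested in these fits. Wnt7b, under the main filter, entered some of them as higher, and so did Dkk2 with DESeq2, without the filter and at a minimum count of 5. The larger counts of higher genes therefore add no support. Against a fold of 1.5, glmTreat called 0 and 0 Wnt genes, 2 and 7 of the pathway list and 447 and 594 of all genes. Kdr stayed between -2.86 and -2.80 under the 19 alternatives. Same-numbered libraries did not deviate together (correlations from -0.0982 to -0.00664), which cannot show whether they shared a culture or preparation. With the replicate number as a block 7 Wnt genes rose and 13 fell.

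Signs turned in 21 instances over 6 uncalled genes near 0. Fzd8 was -0.00231 with RLE, -0.0161 with upper-quartile factors, -0.00193 with limma-voom, -0.00797 at a mean of at least 5 CPM, -0.000161 with the block, and -0.036 to 0.0517 when a library was left out. Leaving out a library gave -0.0815 to 0.231 for Sfrp1, -0.149 to 0.12 for Nkd2, -0.0242 to 0.294 for Wnt9a, -0.0419 to 0.249 for Wnt2b and -0.032 to 0.0161 for Dvl3. The cause was not tested. Wnt7b, picked for its difference and past a lower filter through the siRNA libraries alone, had log2 fold changes of 4.95 with DESeq2 and 4.61 with a minimum count of 5, which describe these libraries and add no support. Genes under about 10 counts a library, Axin2 and Lef1 among them, are limited by depth.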
